A study of Mus musculus with 292 samples.

Results

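The genes described belong to the gene families of voltage-gated calcium and sodium channels, HCN channels, and ClC chloride channels and exchangers. They include pore-forming and auxiliary subunits. They were taken by symbol: every annotated gene whose symbol begins with Cacn, with Scn or Hcn and a digit, or with Clcn. The rule gave 36 genes with 39 probes among the 10835 named genes of the array, and each gene was read from its most variable probe (largest SD over mice). By family they are 6 calcium channel pore genes (Cacna1), 3 alpha2delta genes (Cacna2d), 2 beta genes (Cacnb), 8 gamma genes (Cacng), 7 sodium channel pore genes, 2 sodium channel beta genes, 3 HCN genes and 5 Clcn genes. Clcn genes encode chloride channels and chloride-proton exchangers, which a name built on calcium, sodium and HCN channels does not cover.

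Brain RNA was measured on 292 arrays, 1 for each of 292 F2 mice whose parents were F1 animals of a cross of C57BL/6J with C3H/HeJ, 2 inbred strains, made in both directions. Males and females had chow of 4% fat up to week 8, then 12 weeks of a Western diet of 42% fat and 0.15% cholesterol, and were killed at 20 weeks of age after 12 h without food. Mouse RNA carried Cy3 and a pool of equal portions of every sample's RNA carried Cy5 on each array. The labels give no sex or cross direction for a single mouse, no untreated or chow-only group and no brain region, so all mice formed 1 group and the comparisons run across mice and against the pool that the same mice make up. An F2 intercross leaves each mouse with its own mixture of the parental genomes.

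In a voltage-gated calcium channel the alpha1 pore lets calcium in when the membrane depolarises, the beta subunit brings the pore to the membrane and tunes its gating, and the alpha2delta subunit raises its surface density. Most brain Cacng proteins are better known as TARPs, which accompany AMPA-type glutamate receptors, while Cacng1 belongs to the calcium channel of skeletal muscle. Sodium channel pores such as Scn1a, Scn3a and Scn8a carry the action potential upstroke, and their beta subunits (Scn2b, Scn4b) shape gating and anchor the channel. HCN channels open on hyperpolarisation and pass the pacemaker current. Clcn2 is a plasma membrane chloride channel, and Clcn3 to Clcn6 encode exchangers of endosomes and lysosomes.

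Each value was read as the log10 ratio of a mouse to the pool, so 0 is the level of the pool. The base is not stated by the labels, and all fold values here rest on it. The direction is likely and not stated by the labels: with the values as deposited, the mean ratio of the Y-linked gene Eif2s3y over all mice was 0.790 (0.987 over batches A and B), while a pool of equal portions should give 1, and with the sign turned it was 21.6 (21.8 over batches A and B). For the Y-linked gene Kdm5d it was 0.861 over all mice, and 6.29 with the sign turned. The arrays correlated with each other between -0.638 and 0.795 (Pearson r over all probes, median 0.109), and 3.39% of array pairs had r under -0.3. With every sign turned, each higher would read lower and each lower would read higher, while correlations and counts of pairs would stay as they are. Array medians lay between -0.00726 and 0.0133. Probes without a value marked 3 array batches, called A (74 mice), B (77 mice) and C (141 mice). Batch C held only mouse numbers from 213 up. The median log10 ratio of Eif2s3y over the mice of batches A, B and C was -1.65, 0.281 and -0.0631, and batch and sex cannot be told apart from the labels. A ratio to a pool holds no level, so neither the tissue nor the order of levels between genes could be checked against markers. In such bulk RNA, fewer cells of a type and less RNA per cell cannot be told apart.

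The promoters of the genes that stood at opposite ends of the main pattern below, Hcn2 and Cacna2d3, are shown because their transcripts moved against each other in these mice (r = -0.741). Each is the 250 bases before the RefSeq start, written in the sense of the gene, with capitals marking GC boxes, here the letters GGGCGG on either strand, with overlapping matches merged into 1 run. The Hcn2 promoter lies at chr10:79716384-79716633 on the plus strand and the Cacna2d3 promoter at chr14:29721865-29722114 on the minus strand of GRCm38.p6.
Hcn2: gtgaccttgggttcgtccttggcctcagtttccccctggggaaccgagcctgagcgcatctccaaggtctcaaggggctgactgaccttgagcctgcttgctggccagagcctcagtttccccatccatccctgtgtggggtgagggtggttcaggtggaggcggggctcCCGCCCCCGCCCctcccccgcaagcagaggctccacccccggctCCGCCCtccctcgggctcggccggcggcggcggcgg
Cacna2d3: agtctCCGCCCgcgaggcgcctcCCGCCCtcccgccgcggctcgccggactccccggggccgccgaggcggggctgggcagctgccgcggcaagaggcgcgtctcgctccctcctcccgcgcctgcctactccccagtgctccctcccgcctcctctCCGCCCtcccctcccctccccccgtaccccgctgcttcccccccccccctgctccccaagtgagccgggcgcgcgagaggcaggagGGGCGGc
The search found 3 GC boxes before Hcn2 and 4 before Cacna2d3, and their GC content was 70.4% and 80.0%. RefSeq listed 37 promoters for 29 of the 36 genes, of which 18 (48.6%) held a GC box, against 32.7% of 32851 mouse promoters of the same length. The cAMP response element TGACGTCA was in 1 of the 37 (1.55% of all promoters) and the E-box CACGTG in 2 (6.02% of all promoters), both searched on either strand. All RefSeq starts were counted as listed, alternative starts included, and some of these windows, such as those of Cacng8 and Cacnb4, may lie in transcribed sequence.

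Most channel genes varied little between the brains. The median SD over mice was 0.0509 on the log10 scale, which is a ratio of 1.12, and the median over all named genes was 0.0513. The middle 90% of mice spanned 1.43-fold for the median channel gene and 1.45-fold for the median named gene. Of the 36 genes, 18 lay above the median SD of named genes and 1, Cacnb1, lay in the top 5%. Taking the most variable probe of each gene raises these SDs for genes with several probes, by the same rule in all genes.

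Cacnb1, a beta subunit that muscle and brain both use, had the largest SD. Its log10 ratio ran from a lowest value of -0.379 over a median of 0.0145 to a highest value of 0.336, with an SD of 0.123 and a 2.67-fold span of the middle 90%. The lowest mouse was in batch B and the highest in batch C, and the batch ranges overlapped almost wholly. Cacnb4, the beta subunit whose loss causes ataxia in lethargic mice, ran from -0.183 over a median of 0.0580 to 0.317 (SD 0.101). Its median was 0.00287, -0.0108 and 0.133 in batches A, B and C, and the batch C mice, from -0.105 to 0.317, still overlapped the others.

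Among the sodium channel pores, Scn10a, best known from sensory neurons of the dorsal root ganglia, ran from -0.208 over a median of 0.0180 to 0.599 (SD 0.0981). That highest value stood far above the middle 90% of mice, which ended at 0.171. Scn3a, a pore prominent in developing neurons, ran from -0.239 over 0.0193 to 0.264 (SD 0.0808). Scn8a, the pore concentrated at the axon initial segment and nodes, ran from -0.210 over 0.0141 to 0.244 (SD 0.0740). Scn1a, the main pore of fast-spiking interneurons, ran from -0.283 over 0.00794 to 0.192 (SD 0.0758). Its lowest values were all in batches A and B, and batch C went no lower than -0.0949.

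The sodium channel beta gene Scn2b ran from -0.290 over a median of -0.0168 to 0.270 (SD 0.0937). Hcn2, the HCN pore of thalamic and many other neurons, ran from -0.225 over -0.0644 to 0.160 (SD 0.0837). Its batch C values ended at 0.0801, and those of batches A and B reached 0.160 and 0.155. Clcn3, an endosomal exchanger, ran from -0.171 over 0.0112 to 0.259 (SD 0.0684). Cacng8, the TARP known as gamma-8 that is abundant in hippocampus, ran from -0.242 over -0.0413 to 0.152 (SD 0.0679).

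The steadiest genes were the gamma genes Cacng7 (SD 0.0239) and Cacng5 (0.0255) and the presynaptic pores Cacna1a of the P/Q type (0.0246) and Cacna1b of the N type (0.0251). All 4 lay in the lowest 5% of named genes by SD. The Cacna1 family as a whole had a median SD of 0.0367, the beta family 0.112 and the sodium channel pores 0.0740.

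**Figure D1:**
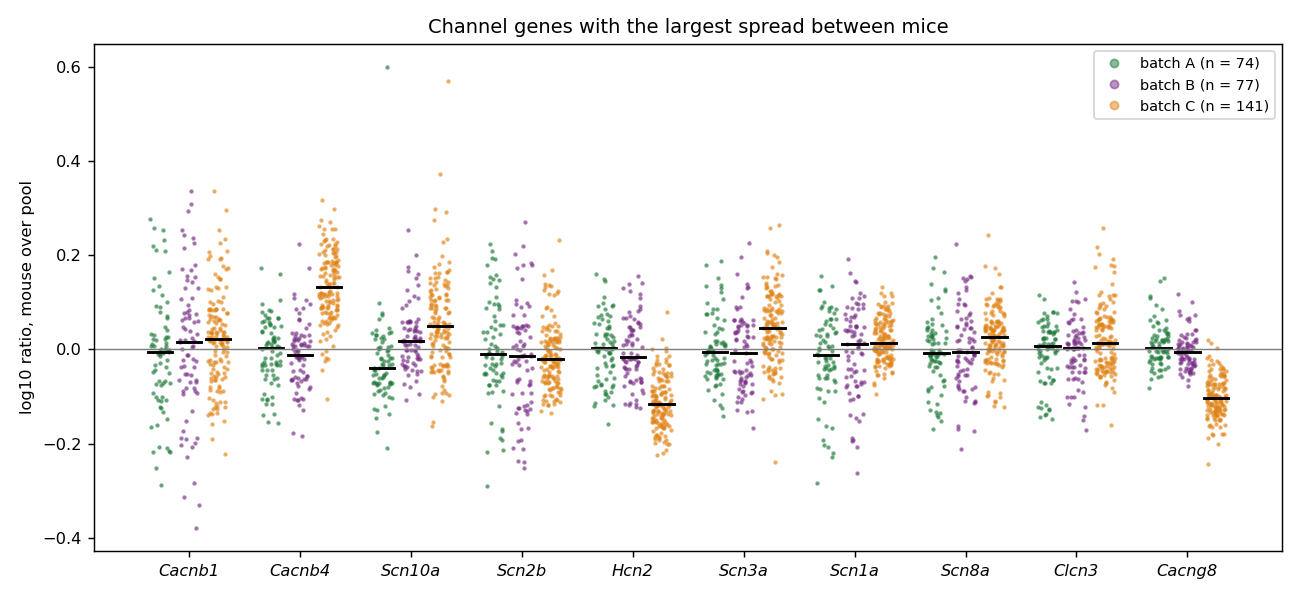
The log10 ratio of mouse over pool (vertical axis) is plotted for the 10 channel genes with the largest SD (horizontal axis), 1 point per mouse, coloured by array batch, with a black bar at each batch median. Batch C stands above the others for Cacnb4 and below them for Hcn2 and Cacng8, 2 mice stand far above the rest for Scn10a, and Cacnb1 has the largest SD in all 3 batches.

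None of the 36 genes differed from the pool by 1.2-fold. The call asked for a mean of at least 1.2-fold and an adjusted p under 0.05 (limma, Benjamini-Hochberg over 23549 probes), and 0.586% of all probes met it. By adjusted p alone 27 of the 36 passed, 9 higher and 18 lower than the pool, against 68.4% of all probes, so a pass by p alone was common on these arrays. The mean of Cacnb4 was 0.0601 ± 0.00591 (SE, n = 292), which is 1.15-fold higher (limma adjusted p = 9.02e-20), with 207 mice above the pool and 85 below. Hcn2 lay at -0.0550 ± 0.00488 (SE; limma adjusted p = 3.47e-23) with 214 mice below the pool. Cacng8 lay at -0.0469 ± 0.00396 (SE; limma adjusted p = 7.43e-25) with 215 mice below. A pool of equal portions of the same RNA should give a mean ratio of 1. The mean ratio before taking logs was 1.18 for Cacnb4, 0.898 for Hcn2 and 0.909 for Cacng8. Since the mice make up the pool, these offsets and their p-values cannot be read as a difference of the mice from it, and their cause was not tested. All 3 are genes whose batch C mice stood apart, and in batch C alone 3 of the 36 passed both criteria.

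Between the array batches, 4 genes differed by 1.2-fold or more with an adjusted p under 0.05 (limma moderated F), which is 4 of 36 beside 8.17% of all probes. By adjusted p alone 29 of 36 passed, beside 64.0% of all probes. Cacnb4 averaged -0.00536, -0.0107 and 0.133 in batches A, B and C, a largest difference of 1.39-fold (limma adjusted p = 4.51e-41). Hcn2 averaged -0.00137, -0.00243 and -0.112 in the same order, a difference of 1.29-fold (limma adjusted p = 4.38e-35). Cacng8 averaged 0.00975, -0.00237 and -0.101, a difference of 1.29-fold (limma adjusted p = 1.73e-55). For these genes batches A and B lay close together and batch C apart, higher in Cacnb4 and lower in Hcn2 and Cacng8. Scn10a averaged -0.0294, 0.0252 and 0.0560, a difference of 1.22-fold (limma adjusted p = 1e-08), with a step between A and B as well. Batch, mouse number and whatever else changed between these arrays cannot be told apart.

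Genes that work with these channels were tested in the same fits. Of 42 partner genes listed (calcium release channels, calmodulin kinases, ankyrins, FGF homologous factors, AMPA receptor subunits and others) 29 were measured. Of these 0 passed the pool call, beside 0.586% of all probes, and 20 passed by adjusted p alone, beside 68.4%. Between batches 3 of the 29 passed both criteria, beside 8.17% of all probes, so the count is near that of any probes. They were Gria2 and Gria4, which encode AMPA receptor subunits, and Stim1, the calcium sensor of the endoplasmic reticulum. Gria2 averaged -0.0120, 0.00367 and 0.122 in batches A, B and C. Gria4 averaged -0.00866, -0.0316 and -0.0986, and Stim1 -0.00807, 0.00193 and -0.0792.

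Cacng3 and Scn1a were the 2 channel genes whose values fell into separate levels, as 6.41% of named genes and 6.57% of all probes did, by Gaussian mixtures whose neighbouring means had to lie over 3 within-level SDs apart. Cacng3, another TARP, had levels at -0.0996, 0.0112 and 0.121 with 12.7%, 78.4% and 8.90% of the mice. Scn1a had levels at -0.177 and 0.0171 with 6.16% and 93.8% of the mice. The outer levels of both genes held mice of batches A and B almost alone. Of the 37 mice in the low level of Cacng3, 15 were from batch A, 21 from batch B and 1 from batch C, and of the 26 in its high level 15, 10 and 1. The 18 mice of the low level of Scn1a were 9 from batch A and 9 from batch B, with 0 of the 141 mice of batch C. By batch, in the order A, B, C, the SD of Cacng3 was 0.0828, 0.0835 and 0.0259, and that of Scn1a 0.0921, 0.0947 and 0.0461. Neither gene met the rule in any 1 batch alone. Scn1a no longer met it after batch centring or after scaling the arrays to 1 SD, and Cacng3 did not with unequal variances. Both genes were left out of the correlations across all mice. Within the upper level of Scn1a (274 mice) its r with Clcn3 was 0.451 and with Hcn3 -0.419. Within the middle level of Cacng3 (229 mice) its r with Cacng6 was -0.408. These were picked as the largest among the other channel genes, and are descriptions with no test and no split by batch.

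Many channel genes moved with one another across mice. The other 34 genes form 561 pairs, and a pair was called at a Pearson r of at least 0.4 in size over 292 mice with the same sign in each batch. Of the 561, 89 were called (15.9%), 69 positive and 20 negative, beside 9.55% of all pairs of named genes, with 5.33% positive and 4.22% negative. An adjusted permutation p under 0.05 was more common, at 378 of the 561 pairs (100000 permutations, adjusted over the 561), and 365 of them passed by rank as well. The permutations ran over all mice without regard to batch, so a shift between batches can by itself give a small p. The share of all pairs of named genes that pass by p alone was not taken. Pairs from 1 family were called as often as pairs from different families, at 11 of 69 and 78 of 492, both 15.9%. The Cacng family had 7 of its 21 pairs called, with a median r of 0.322. The 6 Cacna1 pores had 0 of 15 called, with r between -0.122 and 0.306. Cacng8 was in 13 called pairs, Hcn2 in 12 and Clcn6 in 11. Cacna1f, the retinal L-type pore, and Clcn4 were in none.

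The strongest pairs formed a block around Hcn2 and Cacng8 on one side and Cacnb4 and Cacna2d3, an alpha2delta subunit, on the other. Hcn2 and Cacnb4 had r = -0.789 over all mice, and -0.553, -0.606 and -0.670 in batches A, B and C. Cacng8 and Cacnb4 had r = -0.763 (-0.471, -0.531 and -0.505 in batches A, B and C), so in both pairs the opposite movement was present inside every batch. Cacng8 and Hcn2 moved together at r = 0.751, with 0.612 and 0.724 in batches A and B and 0.325 in batch C. Cacna2d3 ran against Hcn2 at r = -0.741 (-0.763, -0.647 and -0.335) and against Cacng8 at r = -0.696 (-0.667, -0.727 and -0.160). Cacna2d3 and Cacnb4 moved together at r = 0.620 (0.491, 0.429 and 0.231). For these pairs with Cacna2d3 the relation was smallest in batch C. Each of the 12 largest pairs had an adjusted permutation p of 2.86e-05, from the smallest p that 100000 permutations can give, 1e-05, and r moved by at most 0.0185 in any of them when the 2 mice most distant from the first gene's median were dropped.

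The first principal component of all probes, which held 15.2% of the variance, ran through this block. Hcn2 had r = -0.839 with it, Cacng8 -0.832, Cacna2d3 0.825 and Cacnb4 0.783. With the component removed, the r of Hcn2 and Cacnb4 was -0.390, that of Cacng8 and Cacnb4 -0.323, that of Cacng8 and Hcn2 0.174 and that of Cacna2d3 and Hcn2 -0.158. Cacna2d3 and Cacng8 had -0.0316, and Cacna2d3 and Cacnb4 changed direction, to -0.0746. None of those 6 pairs then met the rule. Of the 561 channel pairs 36 met the rule without the component, beside 5.64% of all pairs of named genes, and 53 did after batch centring, beside 7.28%. In both settings, and most without the component, the channel pairs stood less above all pairs of named genes than before. At an r of at least 0.3 the count was 138, beside 17.7%. What the component stands for was not tested.

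A second group of pairs did not follow that component. Scn3a, Scn8a, Scn2b and Cacnb1 had r of 0.192, 0.136, -0.268 and 0.0126 with it. Scn3a and Scn8a moved together at r = 0.713 (0.716, 0.797 and 0.645 in batches A, B and C). The beta gene Scn2b moved with Scn8a at r = 0.694 (0.634, 0.744 and 0.757) and with Scn3a at r = 0.692 (0.716, 0.814 and 0.719). Cacnb1 moved with Scn2b at r = 0.643 (0.713, 0.747 and 0.479) and with Scn8a at r = 0.637 (0.600, 0.709 and 0.571). These 5 pairs kept r of at least 0.479 inside each batch and met the rule under every alternative run on them. Scn3a, Scn8a, Scn2b and Cacnb1 each moved more closely still with genes outside the channel families. Scn8a had r = 0.974 with the olfactory receptor gene Olfr957, and Scn3a had 0.957 with AF366264. Scn2b and Cacnb1 both followed Hao1, a gene known from liver, at 0.832 and 0.761. The pattern is thus not particular to channel genes, and its cause was not tested. The remaining pair of the 12 largest joined the T-type pore Cacna1g and Clcn2 at r = 0.656 (0.628, 0.497 and 0.515), and with the component removed it was 0.364.

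**Figure D2:**
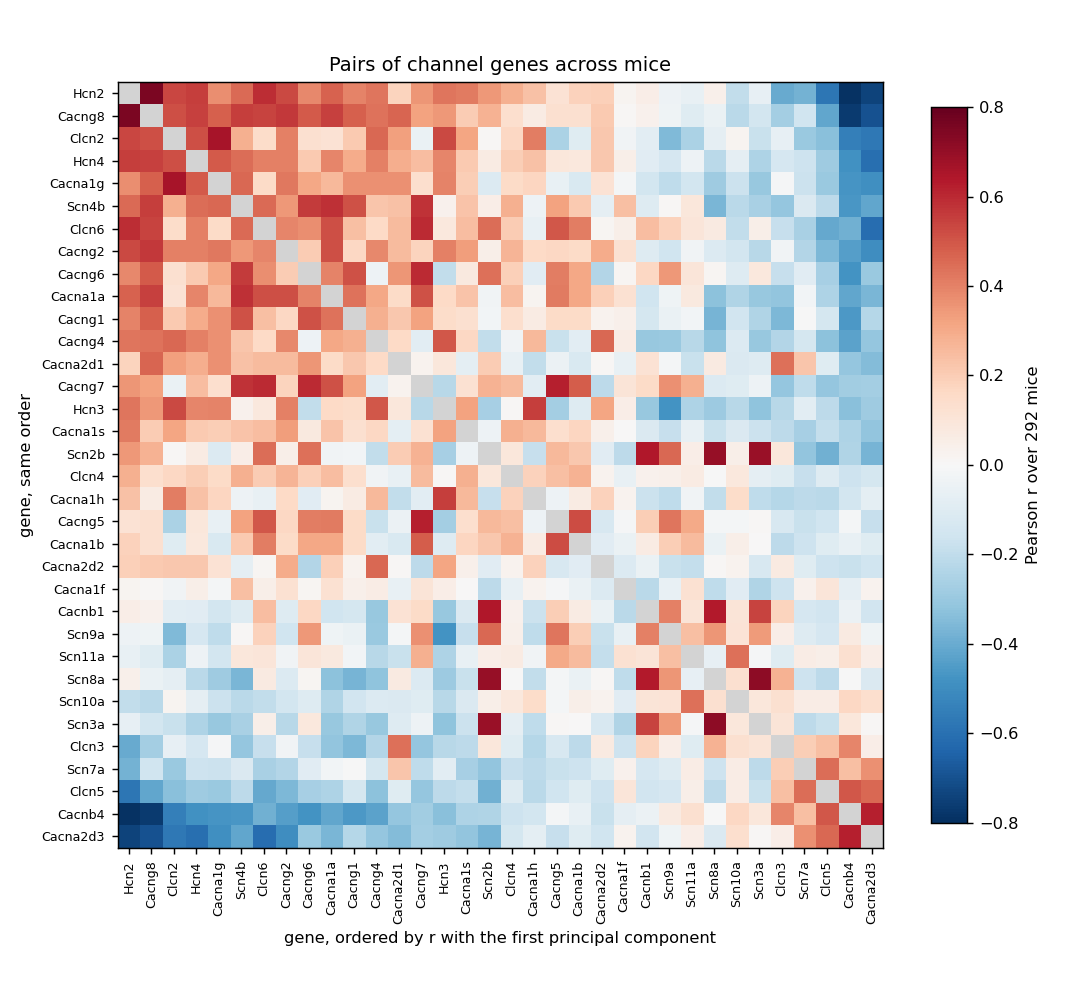
Pearson r over 292 mice is shown by colour for every pair of the 34 channel genes without separate levels, both axes ordered by the r of a gene with the first principal component. Hcn2 and Cacng8 at one end are blue against Cacnb4 and Cacna2d3 at the other (r from -0.789 to -0.696), and Scn2b, Scn8a, Scn3a and Cacnb1 form red cells of their own (up to 0.713).

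**Figure D3:**
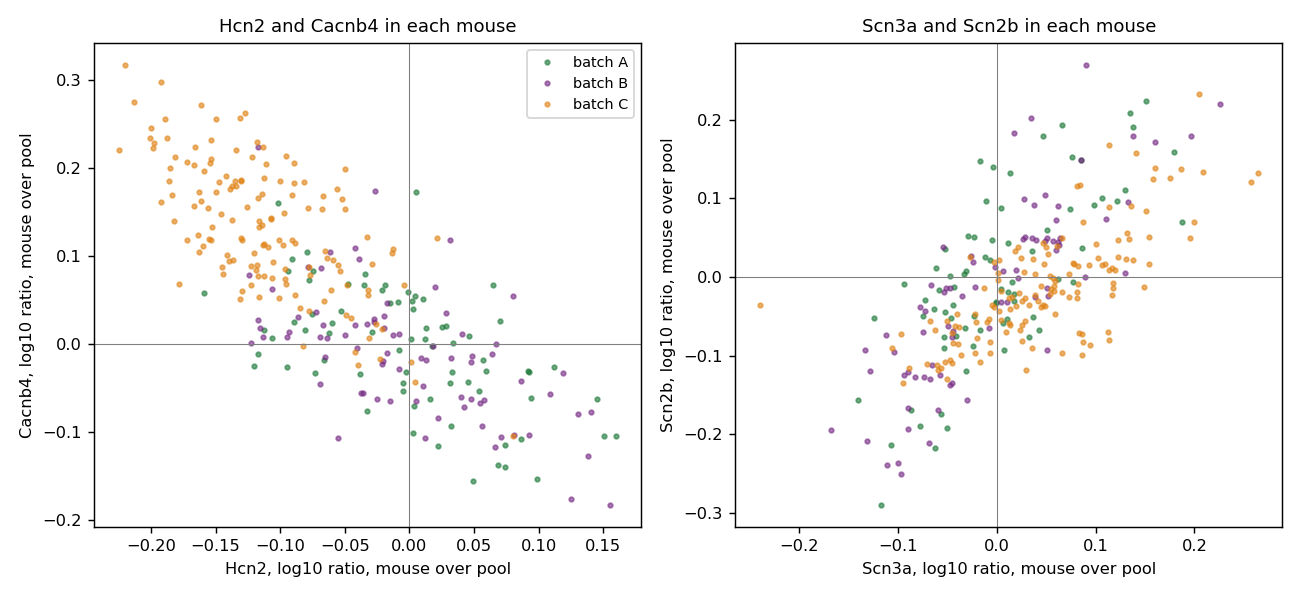
The log10 ratio of mouse over pool is plotted for Hcn2 against Cacnb4 (left) and Scn3a against Scn2b (right), 1 point per mouse, coloured by batch. On the left batch C is shifted towards low Hcn2 and high Cacnb4 and all batches slope downwards (r = -0.789); on the right the batches overlap and slope upwards (r = 0.692).

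Other called pairs lay within the gamma family. Cacng5 and Cacng7 had r = 0.620 (0.521, 0.575 and 0.770). Within batch C alone both of these genes met the rule for separate levels, so the r of 0.770 there is a description only. Cacng6 and Cacng7 had r = 0.598 (0.629, 0.548 and 0.621), and Cacng2, the TARP stargazin, and Cacng8 0.565 (0.275, 0.327 and 0.219). Among the HCN genes, Hcn2 and Hcn4 had r = 0.550, with 0.112 in batch C. The sodium channel beta gene Scn4b moved with Cacna1a at r = 0.583 (0.342, 0.4003 and 0.617). Hcn3 moved with the T-type pore Cacna1h at r = 0.553 (0.758, 0.647 and 0.3001). Clcn5 ran against its relative Clcn6 at r = -0.412.

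A list of 34 pairs of channel subunits and partners, drawn up from general knowledge, was tested apart from the pairs above. It also held pores of different channels, such as Cacna1g with Hcn2 (r = 0.369), so it is not a list of 1-complex partners alone. It did not hold Scn2b with Scn8a or Scn3a, or Hcn2 with Hcn4. Of the 34 pairs 15 could be tested, 4 had a gene with separate levels and 15 did not have both genes measured. Of the 15, 0 met the pair rule, beside 9.55% of all pairs of named genes. At that share few calls among 15 pairs would be seen. An adjusted permutation p under 0.05 (adjusted over the 15), which takes no account of batch, was reached by 11, 5 positive and 6 negative. Cacng2 and Gria2, the TARP and an AMPA receptor subunit, had r = -0.475 over all mice, and 0.0470, -0.213 and -0.108 in batches A, B and C. Cacna1a and Cacnb4 had r = -0.413, with 0.00565 in batch C. Scn8a and Scn4b had r = -0.364, with nearly the same value in each batch (-0.315, -0.346 and -0.314). Hcn2 and Pex5l, the gene of the HCN trafficking protein TRIP8b, had r = 0.360 (0.0900, 0.143 and 0.154). Clcn2 and Mlc1, both tied to white matter disease, had r = 0.243, with 0.450, 0.394 and -0.00480 by batch.

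Mean scores of marker lists for brain regions and cell types were set against the channel genes. The mean standardised value of each of 18 marker lists was taken per mouse, and the anterior pituitary list was left out of pooled correlations because its own values fell into separate levels. Of 578 relations between the 34 genes and 17 lists, 74 met the same rule as the pairs (12.8%), 55 positive and 19 negative, beside 9.17% of the relations of all named genes (5.35% positive, 3.82% negative). An adjusted permutation p under 0.05, again without regard to batch, was reached by 402 of the 578, and its share over all named genes was not taken. The genes of several lists hardly moved together: the median r between genes of a list was -0.0187 for the thalamic and habenular, -0.0203 for the inhibitory neuron, 0.0229 for the vessel, 0.0411 for the general neuronal, 0.0430 for the astrocyte and 0.0582 for the striatal list. It lay between 0.102 and 0.512 for the others, and a relation with a score of the first 6 is one with that mean and not with the markers as a group. These lists rest on ratios, so the defining markers have no level to check, and their part in the pairs above was not tested.

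The cortical and hippocampal list (12 of its genes measured) met the rule with 16 of the 34 genes, 13 positive and 3 negative, beside 28.5% of all named genes (18.0% positive). Cacng8 had r = 0.724 with it (0.626, 0.503 and 0.438 in batches A, B and C), Cacnb4 -0.693 (-0.606, -0.570 and -0.305) and Hcn2 0.671 (0.716, 0.556 and 0.0551). The list itself had r = -0.846 with the first principal component and mean scores of 0.335, 0.350 and -0.367 in batches A, B and C. With the component removed, these relations were 0.0962 for Cacng8, -0.0845 for Cacnb4 and -0.157 for Hcn2. The hypothalamic list (11 genes) met the rule with 14 channel genes, beside 23.4% of named genes, led by Hcn2 at r = 0.651 and Hcn4 at 0.607. Cacng8 had r = 0.562 with it, which turned to -0.0540 with the component removed. The brainstem and monoamine list (11 genes) met it with 6, beside 11.1%: Hcn2 at 0.634, Cacng8 at 0.602 and Cacnb4 at -0.579 were the largest, and after batch centring none of these 3 met the rule (0.385, 0.236 and -0.248).

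The respiratory chain list (8 genes) met the rule with 10 channel genes, 8 positive and 2 negative, beside 23.5% of named genes (11.9% positive). Cacng7 had r = 0.617 (0.681, 0.689 and 0.497), Cacng6 0.604 (0.606, 0.805 and 0.293) and Scn2b 0.573 (0.579, 0.638 and 0.499). The vessel list (16 genes) met it with 3, beside 9.05%: Cacng6 at -0.540, Cacng7 at -0.517 and Scn4b at -0.440.

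The myelin list (13 genes) met the rule with 4 channel genes, beside 10.7% of named genes. Scn8a had r = -0.525 (-0.473, -0.576 and -0.485), Scn3a -0.496 (-0.425, -0.518 and -0.372) and Cacnb1 -0.443 (-0.416, -0.514 and -0.422), and Cacna1a had 0.444. Scn8a, Scn3a and Cacnb1, which moved together and more closely with genes outside the channel families, thus ran against the mean score of the myelin list in every batch. The median r between the genes of this list was only 0.128, so this holds for the mean and not for each myelin transcript. Scn2b, which moved with the same genes, did not meet the rule with this list. The astrocyte list (10 genes) met it with Scn3a alone, at r = -0.478 (-0.306, -0.462 and -0.439), beside 6.31% of named genes.

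Smaller numbers of channel genes followed the other lists. The thalamic and habenular list (14 genes) met the rule with 6, beside 13.5% of named genes, led by Cacng6 at r = 0.526, the alpha2delta gene Cacna2d1 at 0.507 and Cacng8 at 0.455, the last of which turned to -0.0604 with the component removed. The general neuronal list (10 genes) met it with Cacna2d3 at 0.528 and Clcn2 at -0.425, beside 4.20%. The immediate early list (12 genes) met it with Cacng8 at 0.502 and Cacna2d3 at -0.445, beside 7.58%, and after batch centring these were 0.214 and -0.223. The inhibitory neuron list (9 genes) met it with Hcn4 at 0.460 and Cacna1g at 0.412, beside 0.829%. Microglia markers (10 genes) met it with Hcn3 at 0.455, Hcn2 at 0.449 and Cacng4 at 0.431, beside 6.82%. The striatal list (10 genes) met it with Cacng2 at 0.432, Clcn5 at -0.407 and Hcn2 at 0.406, beside 5.25%. The olfactory bulb list (9 genes) met it with Cacng7 at 0.448 and Cacng6 at 0.404, beside 4.26%. The cerebellar, choroid plexus and erythrocyte lists met it with none of the 34, beside 0.740%, 0.0888% and 0.0789% of named genes, although 0 of 34 does not show that no relation exists. These markers were measured on the same arrays as the channel genes.

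**Figure D4:**
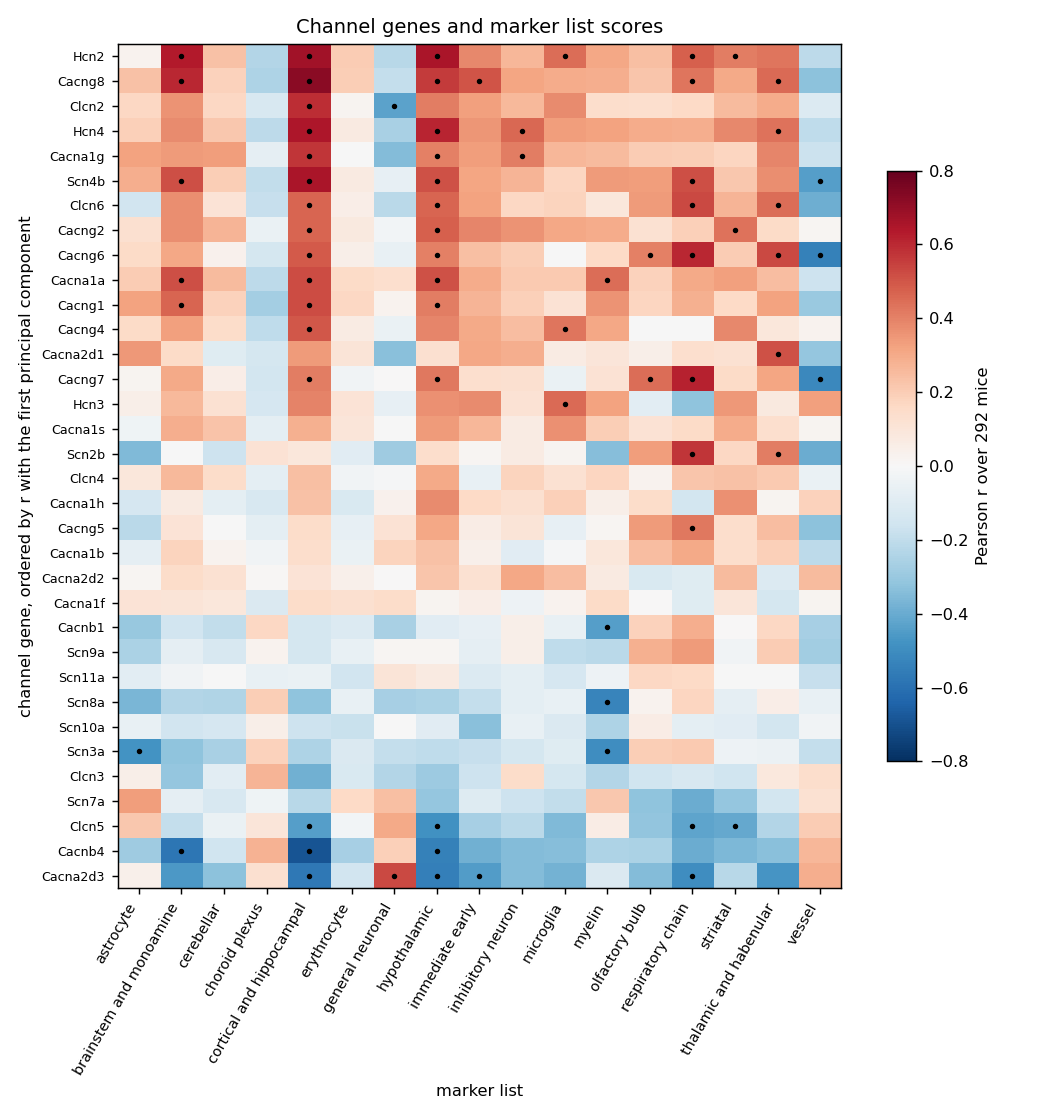
Pearson r over 292 mice is shown by colour for each of 34 channel genes (vertical axis, ordered by r with the first principal component) with the mean score of each of 17 marker lists (horizontal axis), and dots mark relations that met the rule. The cortical and hippocampal column runs from red for Cacng8 (0.724) to blue for Cacnb4 (-0.693), and the myelin column is blue for Scn8a (-0.525), Scn3a and Cacnb1.

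Genes near a channel gene on its chromosome met the pair rule at a share close to the background. Of 666 relations with the 10 named genes on each side 85 were called (12.8%), beside 11.3% of all such relations of named genes and 9.55% of all pairs of named genes. At least 1 of these neighbours was called for 28 of the 34 genes, beside 68.1% of all named genes, and with so many neighbours per gene this shows no closeness along the chromosome. The neighbour with the largest r is given for each of the 28. Cacna2d3 had its neighbour Erc2, an active zone protein gene, at r = 0.849 (0.845, 0.803 and 0.599 in batches A, B and C), the largest r with Cacna2d3 among 10140 named genes. Scn8a had the hair keratin gene Krt71 at r = 0.942 and Scn3a the potassium channel gene Kcnh7 at 0.872. In these cases many genes elsewhere moved as closely, and the neighbours ranked 28 and 46 of 10140. Cacng6 moved with the immune receptor gene Tarm1 at 0.721 and Cacna1a with the RNA helicase gene Ddx39a at 0.708, each ranked 15. Cacng7 moved with AU018091 at 0.708, ranked 67, and Hcn2 with the transcription factor gene Arid3a at 0.676, ranked 611.

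For the other genes the largest called neighbour had a smaller r. For calcium channel genes they were Xylt2 for Cacna1g (0.664), Stam2 for Cacnb4 (-0.656), Med1 for Cacnb1 (0.615), Tarm1 for Cacng8 (0.574) and Grm3 for Cacna2d1 (-0.560). Ppp1r16a for Cacng2 (0.508), Tex2 for Cacng4 (0.484), Phlda3 for Cacna1s (0.444), Noxa1 for Cacna1b (0.438) and Bptf for Cacng5 (-0.401) lay lower. For HCN and chloride channel genes they were Trim46 for Hcn3 (0.647), Loxl1 for Hcn4 (0.583), Ephb3 for Clcn2 (0.546), Plod1 for Clcn6 (0.487) and Spry3 for Clcn5 (-0.423). For sodium channel genes they were Apoa1 for Scn4b (0.533), Tmprss13 for Scn2b (0.466), Fign for Scn7a (0.416) and Lrp2 for Scn9a (0.412). Scn10a and Scn11a were each other's called neighbour at 0.443.

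Several channel genes lie next to one another, and r between such neighbours differed widely. Cacng6, Cacng7 and Cacng8 sit within 1 named gene of each other and had r of 0.598 for the first pair, 0.489 for Cacng6 with Cacng8 and 0.322 for Cacng7 with Cacng8. Cacng1, Cacng4 and Cacng5 are also neighbours, and Cacng1 with Cacng4 had r = 0.286 while Cacng4 with Cacng5 had -0.179. Scn2b and Scn4b have no named gene between them and had r = 0.0552. In the sodium channel cluster, Scn3a had r = 0.340 with Scn9a and -0.211 with Scn7a, and Scn7a had -0.101 with Scn9a.

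The genes most like a channel gene across all 292 mice were found over all named genes without separate levels, and the 8 channel genes with the closest match are given. Scn8a had r = 0.975 with Tirap, an adaptor of Toll-like receptors, 0.974 with the olfactory receptor gene Olfr957 and 0.972 with Ebag9. Scn3a had 0.957 with AF366264, 0.950 with 4833439L19Rik and 0.949 with Nwd1. All 6 kept r of at least 0.921 in every batch. Cacng8 was most like Tnp2, a gene of maturing sperm (0.917), Tpte (0.874) and Sod3 (0.859). Hcn2 ran against the golgin gene Gcc2 (-0.902), the histone demethylase gene Kdm4c (-0.882) and the topoisomerase gene Top2b (-0.880).

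Cacnb4 ran against Keap1, the gene of the Nrf2 inhibitor (-0.861), and moved with Suco (0.836) and Gpbp1 (0.832). Clcn2 was most like Zfp777 (0.850), Plcd3 (0.832) and Dab2ip (0.830). Cacna2d3 was most like Erc2 (0.849), the actin bundler gene Pls3 (0.847) and Nckap1 (0.846), a member of the WAVE complex. Scn2b was most like Cgn, a tight junction gene (0.848), the ribosomal protein gene Rpl23a (0.835) and Hao1, a gene known from liver (0.832). The share of named genes that met the pair rule with a channel gene ran from 26.2% for Cacng8, 25.8% for Cacna2d3 and 25.7% for Hcn2 down to 0.0789% for Scn11a and 0.0197% for Cacna1f.

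Clcn2, Clcn4 and Clcn5 had 2 probes each. Over all mice r between the 2 probes was 0.0457 for Clcn2, -0.0978 for Clcn4 and 0.0600 for Clcn5. For Clcn2 it was 0.461, 0.291 and -0.192 in batches A, B and C. Statements on these 3 genes therefore hold for the more variable probe only. With the mean of the probes in its place, Clcn2 had r = -0.355 with the general neuronal list and Clcn5 -0.291 with the striatal list, neither of which met the rule.

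Single mice stood out in genes that brain is not best known for. Scn10a and Scn11a, sodium channel pores of pain-sensing neurons that lie side by side in the genome, had r = 0.443 over all mice, but a rank correlation of 0.217, and 0.192 without the 2 most distant mice. The mouse numbered 58 (batch A) had 0.599 for Scn10a and 0.264 for Scn11a, and the mouse numbered 252 (batch C) had 0.569 and 0.366. They were the 2 highest mice for both genes, so the call for this pair rests on them. In the same mice Scn9a was at 0.0259 and 0.0582, the peripheral neuron gene Prph at 0.104 and 0.116, Trpv1 at 0.00335 and -0.0188 and P2rx3 at 0.0180 and -0.0484.

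Cacna1s, the L-type pore of skeletal muscle, ran from -0.180 over a median of -0.0181 to 0.329 (SD 0.0484). Its highest mice were numbers 130 (0.329, batch A), 279 (0.291, batch C) and 68 (0.290, batch B). The same mice had 0.452, 0.465 and 0.552 for Tnni2, a troponin of fast muscle, and 0.637, 0.643 and 0.825 for Mylpf, a myosin light chain of fast muscle. Over all mice Cacna1s and Tnni2 had r = 0.789 (0.810, 0.733 and 0.808 in batches A, B and C), a rank correlation of 0.519, and 0.690 without the 2 most distant mice. A list of 15 muscle genes, chosen after the values were seen and so given with no test, held 10 with r from 0.593 up, among them Apobec2 (0.713), Ldb3 (0.709) and Eno3 (0.704). Rank correlations were lower, for example 0.389 for Apobec2 and 0.0811 for Tnnt3, so a few mice carried much of these values. Ryr1 and Casq1, which belong to the same release machinery in muscle, had r of 0.0655 and -0.0536 with Cacna1s. Their rank correlations were 0.0322 and 0.0185, and Ryr1 reached -2 and 2, the limits of the deposited values. Cacng1, the gamma subunit of the muscle channel, had r = 0.252 with Tnni2 (0.324, 0.113 and 0.00360 in batches A, B and C). The rank correlation was 0.559, the largest of Cacng1 on the list. Over the list the r of Cacng1 ran from -0.351 for Mb to 0.410 for Pvalb. The part of muscle RNA in these values was not tested.

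**Figure D5:**
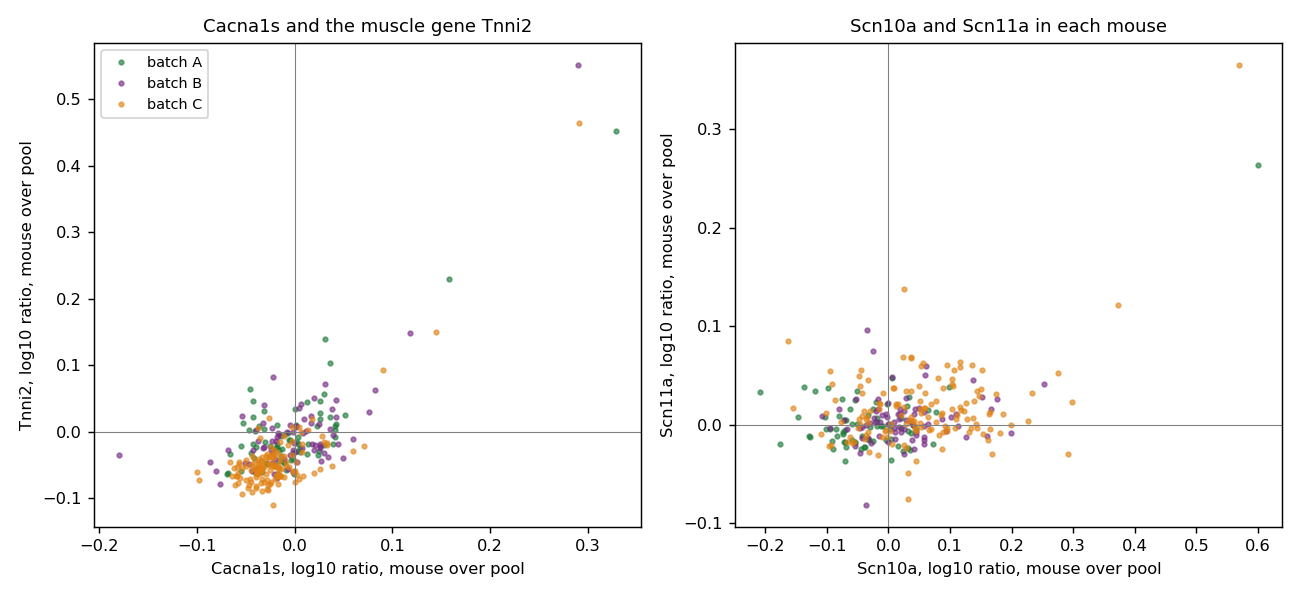
The log10 ratio of mouse over pool is plotted for Cacna1s against Tnni2 (left) and Scn10a against Scn11a (right), 1 point per mouse, coloured by batch. On the left 3 mice, 1 of each batch, lie near 0.3 for Cacna1s and above 0.4 for Tnni2; on the right 2 mice lie above 0.5 for Scn10a, apart from the rest.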

How the data were processed

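Total RNA was amplified and dye-labelled without a dye swap, per the labels' protocols. The deposited log10 ratios, 1 per probe and array, were used as given. Sources used here do not give their log base and direction, the scanner or the normalization by the authors. The signal behind a ratio is unknown, and precision is stated from the number of arrays alone. Of 23574 probes 25 were missing on more than 5% of arrays and left out, and 252 other gaps took the mean of their probe. Of the probes kept, 12645 matched a gene of the GRCm38.p6 gene table, and 690 deposited log10 ratios were exactly -2 or 2. Whether any 2 mice shared a litter is not labelled.

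Array batches were set by which probes lacked values. Tests used limma 3.58.1 in R 4.3.3 on all probes, mclust 6.1.1 for levels and 100000 permutations, two-sided, with Benjamini-Hochberg adjustment within each family of relations, and were tested on simulated data. Named in full were the 10 genes of largest SD, called genes, the 12 largest called pairs, the top 3 genes per list, the called neighbour of largest r per gene and the closest genes of 8 members. The members, gene lists, tests and alternatives were chosen with earlier results of these data known. The alternatives were array centring, scaling and weights, batch centring, removal of the first principal component, the mean of a gene's probes, ranks, and other thresholds.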

Additional observations from a re-analysis of the deposited data

Results flagged for a closer look

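Cacnb4 and Cacng8 differed between the array batches in opposite directions, by the limma test of the difference itself. The mean log10 ratio of Cacnb4 was -0.00536, -0.0107 and 0.133 in batches A, B and C. That of Cacng8 was 0.00975, -0.00237 and -0.101 in the same order. The sign of batch C differs from that of batches A and B in Cacnb4, and from that of batch A alone in Cacng8. Batches A and B lay near the level of the pool, and the limma test is of the difference between batches and not of the sign. The cause was not tested.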

How the results depend on the processing

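No paired analysis was possible because all mice are in 1 group. Against the pool, 27 genes passed without the fold threshold and 3 in batch C alone. Between batches 29 passed without the fold threshold, and 1 differed between the forms of the description text. Separate levels were found in 1 gene with arrays scaled to equal SD, 1 after batch centring, 1 with unequal variance, 7 with means over 2 SDs apart, 0 within batch A, 0 within batch B, 2 within batch C (Cacng5 and Cacng7) and 3 with arrays centred on the median (Cacng5 added). Called pairs numbered 53 after batch centring, 36 with the first principal component removed and 138 at an r of at least 0.3; relations with marker lists numbered 42, 19 and 152. Of partner pairs, 1 was called with scaled arrays, 1 with the component removed, 1 by Spearman rho and 2 at an r of at least 0.3. Members with a called neighbour numbered 21 to 32 over the alternatives. Of 76 named relations, 11 lost their call when arrays were centred on the median, 6 when scaled, 23 after batch centring, 5 by rank, 3 with the mean of a gene's probes and 43 with the component removed. Removing it turned 4 more: Cacna2d3 with Cacnb4 (-0.0746), Hcn2 with the cortical and hippocampal list (-0.157), and Cacng8 with the hypothalamic (-0.0540) and the thalamic and habenular list (-0.0604). The cause was not tested, beyond each alternative's own construction.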
